A study of Mus musculus with 2 samples.

Results

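The transmembrane mucins described here are the genes of the glycocalyx listed as Muc1, Muc3, Muc3a, Muc4, Muc13 and Muc20 in the gene table, matched by symbol. All 6 of 6 named genes were present among 19294 listed genes. They are set by name, with no limit on counts. Poly(A) RNA was sequenced from mouse intestinal organoids (mIOs), grown from crypts in Matrigel with EGF, Noggin and R-spondin. The table holds 1 control culture and 1 culture treated with dextran sulfate sodium (DSS), a sulfated polysaccharide used to injure the intestinal epithelium, both at day 4. Organoids of both groups carried the Lgr5-EGFP-IRES-creERT2 allele, which places EGFP and an inducible Cre in the stem cell gene Lgr5. The DSS concentration of the sequenced culture and the age of the mice are not given in the sources used here, and an organoid holds epithelium without the tissue below it.

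Transmembrane mucins are large glycoproteins anchored in the apical membrane of epithelial cells. Their extracellular parts are rich in serine and threonine and carry dense O-linked glycans, which together form the glycocalyx on the microvilli, beneath the secreted mucus. Many of them are cut near the membrane so that the outer part can be shed, and their tails can bind scaffold and signaling proteins inside the cell. In the intestine, the mucin 3 type proteins and Muc13 belong to the enterocyte brush border, while Muc1 and Muc4 are better known from other mucosal surfaces and from inflamed or transformed epithelium.

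Sequencing depth was 65493032 counts for the control and 59746968 for DSS. There is 1 library per group, so no test was made, no difference has a replicate check, and each interval given with a value is an exact 95% interval of the counting error only. Counts were scaled with TMM factors, written as CPM (counts brought to a common library size), and compared as the log2 ratio of DSS over control. Genes that reached 10 counts in either library are called tested, which held for 17235 genes. Their median log2 ratio was -0.06. In bulk RNA, fewer cells of a type and less RNA per cell cannot be told apart.

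Muc3 and Muc3a, listed with the NCBI gene identifiers 666339 and 619309, lie on chromosome 5, on the minus strand. RefSeq places Muc3 at chr5:137134924-137166048 and Muc3a at chr5:137208805-137212545 in GRCm38.p6. Their names are alike, so their sequences were compared first. Each has a coding exon of 163 bases in the GENCODE vM21 annotation of GRCm38, at chr5:137140691-137140853 in Muc3 and at chr5:137211372-137211534 in Muc3a, and this is the pair of coding exons of equal length. Capitals mark the bases at which the pair differ.
Muc3: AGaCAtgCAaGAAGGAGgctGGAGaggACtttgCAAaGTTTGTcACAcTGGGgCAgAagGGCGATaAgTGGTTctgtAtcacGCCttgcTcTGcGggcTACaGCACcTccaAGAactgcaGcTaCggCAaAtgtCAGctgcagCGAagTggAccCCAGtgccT
Muc3a: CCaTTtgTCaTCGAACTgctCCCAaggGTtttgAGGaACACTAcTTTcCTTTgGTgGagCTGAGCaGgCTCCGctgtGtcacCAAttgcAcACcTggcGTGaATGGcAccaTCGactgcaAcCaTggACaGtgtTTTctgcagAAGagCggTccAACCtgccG
The exons differed at 88 of 163 positions, an identity of 46.0%. No stretch of 50 bases in the longest coding transcript of Muc3, which is 1853 bases long, occurred in a transcript of Muc3a or of any other annotated gene, and the same held for the 1881 bases of Muc3a. Reads of that length from these annotated parts thus belong to one gene or the other. The RefSeq span of Muc3 is 31125 bases and that of the GENCODE models 14401 bases, so the exons at the start of the longer model were not compared.

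The bases before the annotated starts of Muc3 and Muc13 are shown because these genes gave most of the transmembrane mucin counts in both libraries. They are RefSeq sequences of GRCm38.p6, and capitals mark the 9 letters GGTCAAAGG on either strand, a form of the repeated half-site recognised by nuclear receptors such as HNF4. The Muc3 stretch is chr5:137166047-137166296 on the minus strand. For Muc13, which has 2 annotated starts, the stretches are chr16:33793787-33794036 and chr16:33794239-33794366 on the plus strand, and the last of these stops at the first annotated exon base.
Muc3: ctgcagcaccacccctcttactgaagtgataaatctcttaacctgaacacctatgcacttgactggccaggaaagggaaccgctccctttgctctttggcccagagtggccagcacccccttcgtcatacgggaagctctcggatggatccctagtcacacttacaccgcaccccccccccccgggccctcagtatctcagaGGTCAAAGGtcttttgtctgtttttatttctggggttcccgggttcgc
Muc13, first start: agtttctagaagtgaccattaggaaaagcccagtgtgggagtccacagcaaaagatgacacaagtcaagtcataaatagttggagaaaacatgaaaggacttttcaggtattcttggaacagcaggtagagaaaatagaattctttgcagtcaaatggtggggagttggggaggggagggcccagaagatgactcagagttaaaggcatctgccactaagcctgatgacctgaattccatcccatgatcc
Muc13, other start: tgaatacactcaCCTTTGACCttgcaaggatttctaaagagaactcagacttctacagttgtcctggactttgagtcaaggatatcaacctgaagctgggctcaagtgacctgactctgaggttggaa
The 9 letters stood 48 to 40 bases before the start of Muc3 and, on the opposite strand, 238 to 230 bases before the other start of Muc13. They occurred in 2 of the 6 windows of 300 bases that RefSeq gives for the members, and in 0.344% of 32817 such windows over all genes. Muc3a had no window in the table. The motif was chosen after the sequences had been read. The full direct repeat spaced by 1 base and the HNF1 consensus were found in none of the 6 windows and in 0.0396% and 0.0609% of all windows. The STAT form TTCNNNGAA was found in windows of Muc3 and Muc13 and in 8.29% of all windows, the CDX form TTTATG in a window of Muc13 and in 11.9% of all, and the GATA form AGATAA in the window of Muc4 and in 11.2% of all, on both strands and with no overlap between matches in the member windows. The windows run past the annotated start, and the Muc3 match to the STAT form and the Muc4 matches to the GATA form lay after it. All matches named here describe the letters and are not measured binding sites.

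Muc3 had the highest log2 ratio among the transmembrane mucins. Its counts were 2797 in the control and 97996 under DSS, or 39.1 CPM and 1792 CPM. The log2 ratio was 5.52 (interval 5.47 to 5.57), which is 45.9-fold higher in the DSS library (44.2 to 47.6). The gap between the libraries was far wider than counting error. By rank of counts, Muc3 went from position 4858 in the control library to position 56 in the DSS library. Of the 17235 tested genes, 32 had a higher ratio, or 0.186%. Of the 8556 genes that reached 1000 control counts, a limit chosen after the values were seen, none had a higher ratio than Muc3.

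Muc3a, the shorter neighbour of Muc3 on the same strand, had 403 control and 2548 DSS counts, or 5.63 CPM and 46.6 CPM. Its log2 ratio was 3.05 (2.90 to 3.20), 8.28-fold. Both mucin 3 genes were thus higher in the DSS library, but not in proportion. For every 100 counts of Muc3 there were 14.4 counts of Muc3a in the control library (12.9 to 16.0) and 2.60 in the DSS library (2.499 to 2.70). This ratio is taken within a library, so no scaling factor touches it. Taken as 1 gene, Muc3 and Muc3a had 3200 and 100544 counts and a log2 ratio of 5.36 (5.31 to 5.41).

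Muc13 carries a short extracellular part with a SEA domain and EGF-like domains, and was the most counted transmembrane mucin in both libraries. It is listed with gene identifier 17063 and lies at chr16:33794037-33819929. Its counts were 52419 in the control and 141277 under DSS, or 732 CPM and 2584 CPM. The log2 ratio of 1.82 (1.804 to 1.83), or 3.53-fold, lay between the lines of 1 and 2. Its position by counts was 143 in the control library and 38 in the DSS library. In its longest transcript, 14.2% of stretches of 50 bases occurred more than once within the same transcript, and 3.53% also occurred on the opposite strand of the lncRNA Gm15657. The sources used here do not state how the counting treated such reads or the strand.

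Muc4 is a very large mucin that can bind the receptor ERBB2. It is listed with gene identifier 140474 at chr16:32735886-32782391, with 1453 control and 2701 DSS counts, or 20.3 CPM and 49.4 CPM. The log2 ratio was 1.28 (1.19 to 1.38), 2.43-fold. It was higher in the DSS library by less than Muc13, with 2.77 Muc4 counts for every 100 of Muc13 in the control library (2.63 to 2.92) and 1.91 in the DSS library (1.84 to 1.99).

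Muc20, whose protein can bind the receptor MET, and Muc1, the mucin with the best known signaling tail, were close to the limit of detection. Muc20, at chr16:32777419-32797435 with gene identifier 224116, had 19 control and 16 DSS counts. Its log2 ratio was 0.14, with an interval from -0.92 to 1.18 that included 0, and its sign turned with total counts (-0.12) and with the reduced total of the closing section (-0.04). Muc20 overlaps the end of Muc4 on the opposite strand, with 627 shared exonic bases in 3 pieces that make up 15.6% of the Muc20 exons and 5.33% of those of Muc4. Whether the counting used strand is not stated, so reads of Muc4 and Muc20 in these bases cannot be told apart. Muc1, at chr3:89229056-89233381 with gene identifier 17829, had 9 and 5 counts, a log2 ratio of -0.46 and an interval from -2.38 to 1.27. Muc1 stayed below the count minimum. At this depth, no difference was detectable for either gene.

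**Figure D1:**
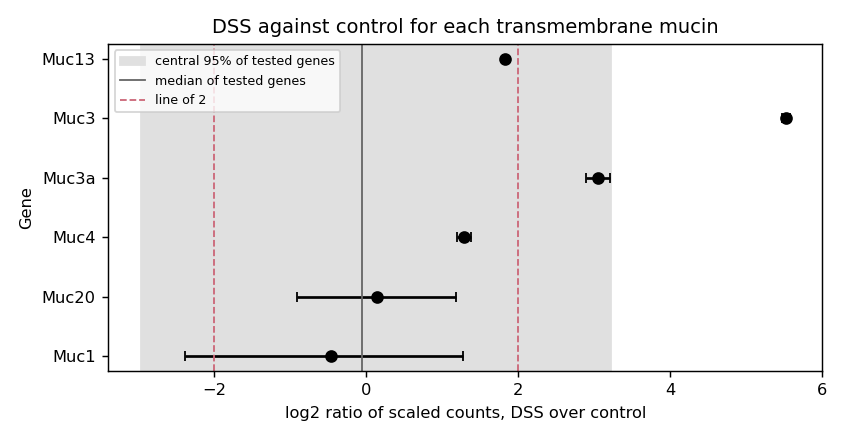
log2 ratio of scaled counts (x axis, DSS over control) for each gene (y axis), with exact 95% counting intervals as bars. The grey band, from -2.97 to 3.22, holds the central 95% of all tested genes, and Muc3 at 5.52 lies outside it.

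With the line of 2 on the log2 scale, 2 members were higher in the DSS library, Muc3 and Muc3a, and 0 were lower. Over all tested genes, 7.87% were at or above this line and 6.54% at or below the line of -2. With the line of 1, 4 members were higher and 0 lower, where 19.3% of all tested genes were higher and 20.2% lower. Of the 6 members, 5 passed the count minimum and all of these were above 0, as were 48% of the tested genes. The median log2 ratio was 1.55 over the 6 members and 1.82 over the 5 tested ones.

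Levels of different genes can only be set side by side per length, so scaled counts were divided by the merged exon length of each gene in GENCODE vM21, as CPM per kb. In the control library, the order was Muc13 at 241 CPM per kb, Muc3 at 20.1, Muc3a at 2.98, Muc4 at 1.73, Muc20 at 0.0659 and Muc1 at 0.0536. Muc13 was 11.99-fold above Muc3 there. Each of the first 4 was separated from its neighbour by more than the counting intervals, while those of Muc20 (0.0397 to 0.103) and Muc1 (0.0245 to 0.102) overlapped.

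In the DSS library, Muc3 at 922 CPM per kb (917 to 928) stood above Muc13 at 851 (846 to 855), followed by Muc3a at 24.7, Muc4 at 4.20, Muc20 at 0.0727 and Muc1 at 0.0390. The order of Muc3 and Muc13 there rests on the length. Muc3 was given 1943 bases of merged exons and Muc13 was given 3038 bases, and a Muc3 length above 2107 bases would put Muc3 below Muc13. The longer RefSeq span makes such a length possible, and the exon length of that model was not analysed here. In the control library, Muc3 stayed below Muc13 down to a Muc3 length of 162 bases. With the median transcript length, Muc4 moved above Muc3a and Muc1 above Muc20 in both libraries.

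**Figure D2:**
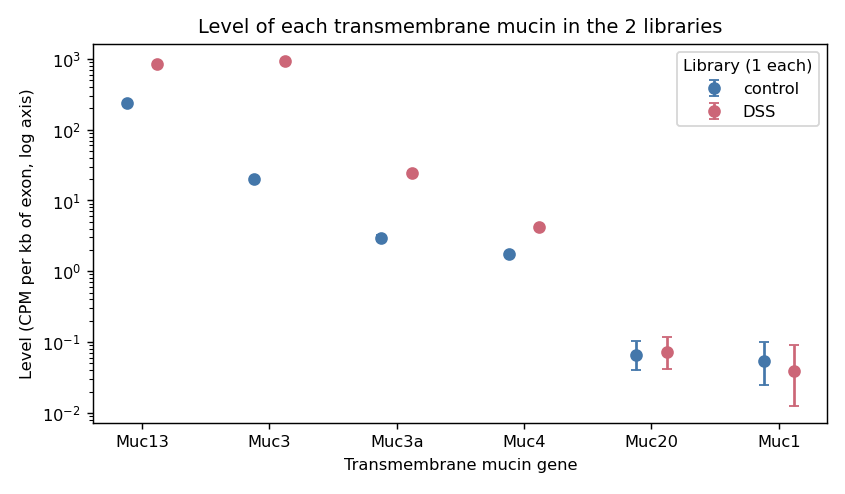
Level per kb of exon (y axis, CPM per kb, log axis) of each gene (x axis) in the control (blue) and DSS (red) library, with exact 95% Poisson intervals of the counts. Muc13 and Muc3 stood 11.99-fold apart in the control library and nearly level in the DSS library, at 851 and 922 CPM per kb, and the points of Muc20 and Muc1 overlap between libraries.

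The 6 genes together had 57100 control and 244543 DSS counts, or 798 CPM and 4473 CPM. The log2 ratio of the sum was 2.49, 5.61-fold. Muc13 gave 50.4% of the difference in CPM and Muc3 gave 47.7%, and without both mucin 3 genes the sum had a log2 ratio of 1.81. The makeup of the counts differed between the libraries. Muc13 took 91.8% of the member counts in the control library (exact binomial interval 91.6 to 92.03) and 57.8% in the DSS library (57.6 to 58.0). Muc3 took 4.90% (4.72 to 5.08) and 40.1% (39.9 to 40.3). Muc4 took 2.54% and 1.10%, Muc3a 0.706% and 1.04%, and Muc20 with Muc1 took less than 0.05% each in either library.

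**Figure D3:**
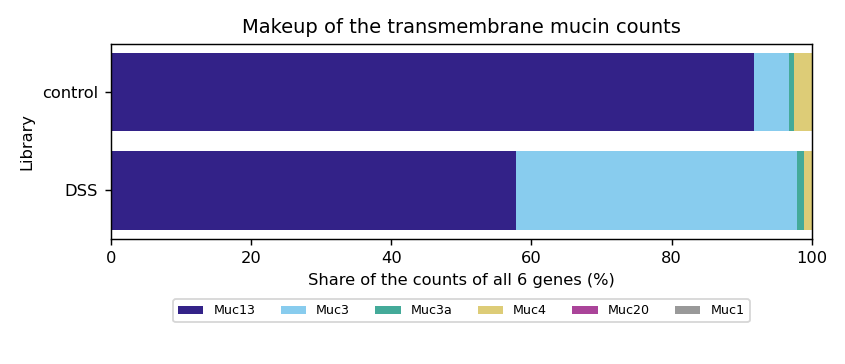
Share of the summed counts of the 6 genes (x axis, percent) in each library (y axis), not divided by length. Muc3 widens from 4.90% in the control library to 40.1% in the DSS library, and Muc13 narrows from 91.8% to 57.8%, although its own CPM was higher there.

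Within a library, 100 counts of Muc13 stood beside 5.34 counts of Muc3 in the control library (5.13 to 5.54) and 69.4 in the DSS library (68.8 to 69.9). The ratio was thus 13.0-fold higher in the DSS library (12.5 to 13.5, from a normal approximation on the log of the 4 counts), whatever the scaling. Against Muc2, the gel-forming mucin of goblet cells, Muc3 was 1.46-fold higher in the DSS library (1.37 to 1.55), a much smaller departure than that from Muc13. Muc13 against Muc2 was lower there, at 0.112 of the control ratio (0.107 to 0.118). Against Cdhr5, a mucin-like protocadherin that links the tips of microvilli, the ratio of Muc13 was 0.786 of the control ratio (0.767 to 0.804), while that of Muc3 was 10.2-fold higher (9.78 to 10.7).

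The cell type markers also differed between the libraries, and their part in the mucin values was not tested. The labels call the cells intestinal stem cells, and the stem cell marker Lgr5 was at 263 CPM in the control and at 19.2 CPM under DSS. All 8 stem cell markers had a log2 ratio below 0, with a median of -3.98 and summed levels of 1769 CPM (control) and 234 CPM (DSS). All 12 enterocyte markers were above 0, 11 of them at 2 or more, with a median of 3.10 and summed levels of 2715 CPM and 27644 CPM. Of the 9 goblet cell markers, 9 were above 0 and 7 at 2 or more, with a median of 2.997 and summed levels of 841 CPM and 10910 CPM.

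Set beside these lists, Muc3 at 5.52 was above all 12 enterocyte markers, the highest of which was the apolipoprotein gene Apoa1 at 5.27 (5.24 to 5.30), and above 7 of the 9 goblet cell markers. Muc3a was above 6 of the 12 enterocyte markers. Muc13 was above 1 of the 12, the lowest at 1.78, and Muc4 above 0. The ratios of the mucins therefore ran from the upper end of the enterocyte markers to below their lowest.

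Markers of the other epithelial cells differed in either direction. All 8 Paneth cell markers were below 0, with a median of -1.69 and summed levels of 1088 CPM and 335 CPM, as were all 7 tuft cell markers (6 with upper quartile factors), with a median of -1.39 and 9.70 CPM and 4.68 CPM. Of the 9 enteroendocrine markers, 8 were above 0, with a median of 2.30 and 881 CPM and 4548 CPM. Listed markers of cells from outside the epithelium gave few counts. Of 9 mesenchymal markers, 4 were listed and these summed to 1.44 CPM and 2.10 CPM, of 7 endothelial markers, 3 were listed at 1.03 CPM and 3.16 CPM, and of 8 immune markers, 5 were listed at 14.2 CPM and 24.7 CPM, mostly from Cd68 and Itgam. Dcn, Col3a1, Cdh5, Ptprc and Cd3e, which define these cells, were not listed. Medians over the tested genes were 0.32, 2.58 and 0.93 for the mesenchymal, endothelial and immune lists. Of 9 markers of gastric and colonic surface cells, 4 were tested, with 2 at 2 or more and a median of 2.11. Muc5ac, Gkn1 and Car1 were not listed, with the same limit. The 2 genes past the line had few counts, with 4 and 42 for Car4 and 3 and 16 for Aqp8. Slc26a3 was at 1.42 with 3062 and 6258 counts, and Tff2 was below 0 with 176 and 67 counts.

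Other mucins were few in the table. No gene was listed under the symbols Muc12, Muc15, Muc16, Muc17 or Muc21, the other membrane-anchored mucins considered. Genes without counts in 1 of the libraries are not listed, so absence here does not show a lack of counts in both. Of the gel-forming mucins, Muc2 went from 1848 to 44422 counts, with a log2 ratio of 4.98 (4.91 to 5.04), and Muc6, a gastric gland mucin, from 10 to 33 counts, at 2.11 (1.06 to 3.30), while the other 3 were not listed. By RT-PCR, the paper found little change of Muc2, Vil1 and Chga in DSS-treated organoids. In these libraries, the log2 ratios of these genes were 4.98, 1.25 and 2.60. The same assay found Lgr5 and Lyz lower, and here Lgr5 was at -3.78 and Lyz1 at -1.06. The 2 assays are not alike. The RT-PCR values are means with SD, whereas each ratio here rests on 1 library per group and TMM scaling. Whether both assays used the same DSS concentration and day is not stated in the paper, and the reason for the different values was not tested. Of 13 membrane sialomucins and mucin-like proteins, 8 were tested, with 1 at 2 or more (0 with total counts), 1 at -2 or less and a median of -0.27. Cdhr5 was at 2.17 (2.14 to 2.20) and Mcam, an adhesion molecule, at -3.37 (-3.90 to -2.88). Parm1 was at 0.94.

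The brush border, where the glycocalyx is held, was described by 15 genes of the microvillus. All 15 were above 0 (14 with total counts), with 9 at 1 or more, 3 at 2 or more (1 with total counts) and a median of 1.26. Myo1a, the motor that ties the actin core to the membrane, had the highest ratio at 3.17 (3.13 to 3.20), with 6737 and 46224 counts. Cdhr2, the partner of Cdhr5 at the microvillus tips, was at 2.001 and Vil1, which bundles actin, at 1.25. Muc3 was above all 15 of these genes, Muc13 above 11 and Muc4 above 8.

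Scaffolds that bind mucin tails and link membrane proteins to actin did not share a direction. The list of 13 names held 11 genes, since 2 of them are second names, and 10 of these were tested, with 1 at 2 or more, 3 at -2 or less and a median of -0.10. Pdzk1, a PDZ scaffold of the brush border, went from 232 to 3214 counts, at 4.18 (3.99 to 4.38). The linker ezrin, Ezr, was at 0.93 (0.91 to 0.95) with 35375 and 51349 counts. Slc9a3r2 was at -2.44, Shank2 at -2.28 and radixin, Rdx, at -2.18, the last with 16 counts in the DSS library.

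Sheddases cut membrane proteins near the cell surface. Of 15 tested genes in this list, 1 was at 2 or more, 1 at -2 or less, and the median was -0.22. Adam17, a sheddase of many membrane proteins, had 2791 and 1629 counts and a log2 ratio of -0.39 (-0.48 to -0.30), and its regulator Rhbdf2 was at -0.42. Mep1b, a brush border metalloprotease, went from 1433 to 13146 counts, at 3.59 (3.51 to 3.67), and Mep1a was at 1.58. Timp3, placed in this list as a regulator of sheddases, was at -2.04 (-2.28 to -1.81).

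The receptors and signaling partners of mucin tails differed little in comparison. All 14 tested genes were above 0 and none was past the line of 2, with a median of 0.37 and a range from 0.11 to 1.27. Erbb3 was at 1.27, Erbb2 at 0.93 with 7028 and 10206 counts, and Met at 0.12 with 1996 and 1653 counts. With total counts, all of these ratios were 0.26 lower, so that 9 stayed above 0 and 5, Met among them, were below. Among the 7 galectins tested, lectins that bind the glycans of the glycocalyx, the median was 0.53. Lgals3 was at 1.19 (1.10 to 1.27) and Lgals4 at 1.14, while Lgals1 was at -2.89 (-3.02 to -2.75).

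The O-linked glycans of mucins are built by several families of enzymes. The list used here was broad, and not all of its genes act on mucins alone. Of 34 tested genes, 25 were above 0, 7 at 2 or more and 1 at -2 or less (6 and 2 with total counts), with a median of 0.48. C1galt1, which makes the core 1 structure, was at 1.02 (0.93 to 1.11). The branching enzymes Gcnt1 and Gcnt3 were at 2.96 and 2.83, the sulfotransferase Chst4 at 2.85 and Galnt5, which starts glycans, at 2.68. Gcnt3 had 1661 and 9033 counts, whereas Gcnt1 had 65 and 386 and Galnt5 had 50 and 244. St3gal4, a sialyltransferase named after its values were seen, had the most counts of the list in the DSS library, with 21171 and 100388 and a ratio of 2.63 (2.61 to 2.66).

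**Figure D4:**
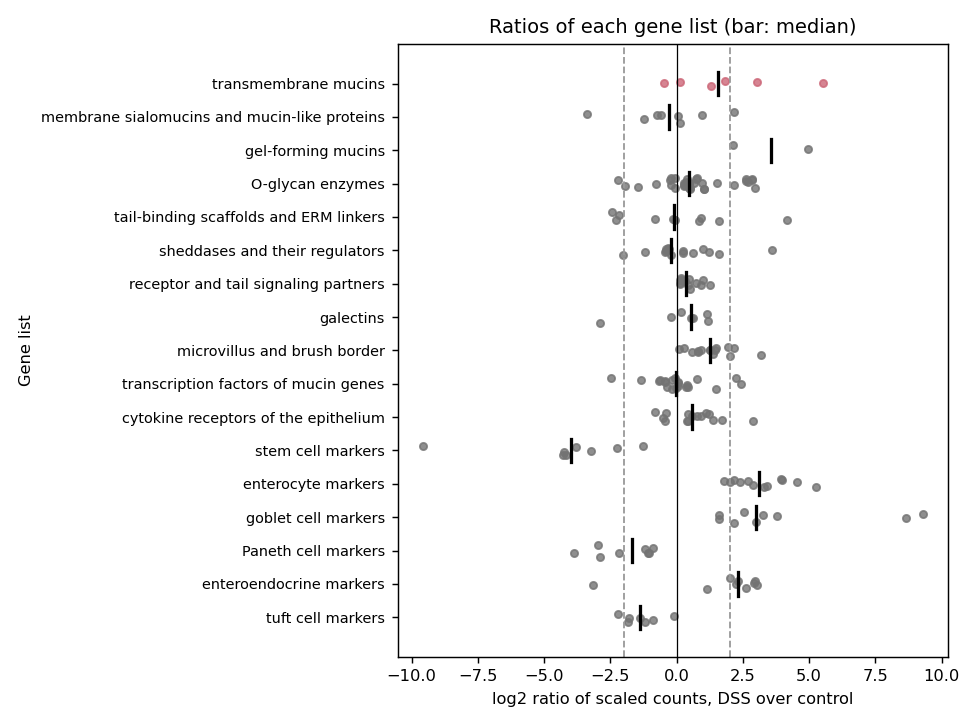
log2 ratio of scaled counts (x axis, DSS over control) of the tested genes in each list and of all 6 transmembrane mucins (y axis), with the median of each list as a black bar and dashed lines at 2 and -2. The mucins, in red, spread from -0.46 to 5.52 around a median of 1.55, between the medians of the microvillus genes (1.26) and of the enterocyte markers (3.10).

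Genes beside the mucins in the genome were read in the same way, with the 2 nearest RefSeq genes on each side. Of 21 such genes, 14 were listed and all of these were tested, with 2 at 2 or more (0 with total counts), 0 at -2 or less, and a median of 0.43 (0.17 with total counts). Next to Muc3, Trim56 was at 0.58 (0.44 to 0.72), and on the other side Gm40348 was at 2.20 with 12 and 42 counts and Gm31160 at 1.88 with 43 and 121 counts. Between these and Muc3a, Gm40349 had 14 and 13 counts and Gm20768 had 23 and 14, with intervals that included 0. Next to Muc13, Heg1 was at 2.12 (1.94 to 2.30), Gm15658 at 1.85 with 50 and 138 counts, and Itgb5 at 0.69. Gm40348, at chr5:137162253-137172944, overlaps the RefSeq span of Muc3, and Gm15658, at chr16:33785697-33796139, overlaps that of Muc13. Exon overlap of these pairs was not examined, and use of strand in counting is not stated. The neighbours of Muc20, Smbd1 and Rubcn, were at -1.44 and 0.21, and those of Muc1, Trim46 and Krtcap2, at -1.25 and -0.57. None of the listed neighbours of Muc3 and Muc3a had a ratio as high as Muc3a. The interval of Gm40348, from 1.24 to 3.26, however included the Muc3a ratio of 3.05.

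The choice of scaling moved all genes together, by -0.26 at one end (total counts) and 0.09 at the other (upper quartile factors). No alternative took Muc3 or Muc3a below the line of 2 or brought Muc4 or Muc13 to it.

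**Figure D5:**
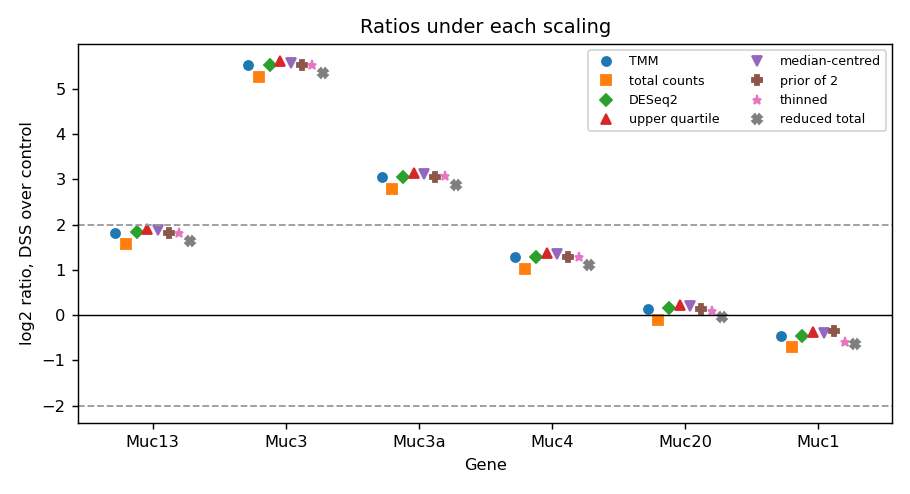
log2 ratio of each gene (y axis, DSS over control; x axis, gene) under TMM factors and 7 alternatives, with dashed lines at 2 and -2. Muc3 ranged from 5.26 to 5.61 and Muc13 stayed below 2, from 1.56 to 1.91, while Muc20 lay on both sides of 0.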

How the data were processed

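Poly(A) RNA of mouse intestinal organoids was sequenced from stranded libraries of 1 control and 1 DSS-treated culture. The authors deposited unnormalized read counts for each gene, and the submitters' processing notes name HISAT2 and StringTie, with no version. Genome build and use of strand in counting are not given in the sources used here. Files named as FPKM held the same counts for all 19294 genes. No listed gene was at 0 in either library, so genes without counts in one of them cannot appear. Of the gene identifiers, 99.7% matched RefSeq of GRCm38.p6, as did 94.0% of transcript accessions.

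TMM factors from edgeR 4.0.16 (R 4.3.3) were 1.09 for the control and 0.915 for the DSS library. Ratios carry exact Clopper-Pearson 95% intervals, and levels carry exact Poisson intervals. No test was possible with 1 library per group. Ratios and intervals were checked on counts simulated with counting error only and with few changed genes, balanced in direction. Differences between cultures were not simulated, so the check does not cover them or the scaling of data with many changed genes. Alternatives were total counts, DESeq2 1.42.0 size factors, upper quartile factors, centring on the median, a prior count of 2, thinning, other count minimums and other lengths. A total without the members and the most abundant genes was added after the data were seen. Python 3.11.15, numpy 2.4.6, scipy 1.17.1, pandas 2.3.3 and matplotlib 3.10.9 were used, with GENCODE vM21 lengths.

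The members and the 21 lists were chosen with earlier results of these data known. Named genes are the members, up to 4 genes of a list with the largest absolute ratio that reached 50 counts in one library, genes named in advance such as Muc2, Cdhr5 and Ezr, and the neighbours, of which 1 is not reported here. Marker genes, list extremes and St3gal4 outside this rule were named after their values were seen.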

Additional observations from a re-analysis of the deposited data

How the results depend on the processing

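The direction of Muc3, Muc3a, Muc4 and Muc13 and the counts of members past the lines of 2 and 1 were the same under all 7 alternatives. With total counts, every ratio was 0.26 lower, at 5.26 for Muc3, 2.79 for Muc3a, 1.03 for Muc4, 1.56 for Muc13, 1.29 for the median of the members, 2.23 for the sum of the 6 genes and 5.11 for Muc3 with Muc3a. With a total without the members and the most abundant genes, they were 5.34, 2.87, 1.11, 1.64, 1.37, 2.31 and 5.19. With upper quartile factors, Muc3 was at 5.61, Muc13 at 1.91, the sum at 2.58 and Muc3 with Muc3a at 5.45. Centred on the median, these were 5.58, 1.88, 2.54 and 5.42. Muc20 turned from 0.14 to -0.12 with total counts, inside its counting interval.

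On the log2 scale, the level of Muc3 over Muc13 per kb was -3.58 in the control library, -3.15 with the median transcript and -3.38 with Muc3a added. In the DSS library it was 0.12, and 0.15 with the longest transcript, 0.55 with the median transcript, 0.072 with the coding length and 0.16 with Muc3a added. Of 140 medians of the lists under the alternatives, 138 kept their sign, and the transcription factor list turned from -0.04 to 0.05 and 0.02 with upper quartile factors and with centring. No paired analysis was possible because each group has 1 library, and for the same reason no library could be left out. Of list genes, 46 were at 2 or more (37 with total counts) and 21 at -2 or less (24 with total counts). Over all tested genes, the shares were 7.87% (6.31% with total counts) and 6.54% (8.83% with total counts). Among the members, depth limits Muc1 and Muc20.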

Other observations

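Transcription factors that are known to act on mucin genes showed no common direction. Of 21 tested genes, 10 were above 0 and 11 below, with 2 past the line of 2 and 1 past that of -2, and the median was -0.04. With total counts, 7 were above 0 and 14 below, with 1 past the line of 2, and with upper quartile factors 12 were above and 9 below. Hnf4a, a factor of enterocyte genes, was at 0.05 (0.03 to 0.07) with 52316 and 41359 counts, and its relative Hnf4g at 2.24 (2.19 to 2.28) with 5005 and 18020 counts. Spdef, a goblet cell factor, was at 2.43 and Klf4 at 1.47. Ehf, an epithelial ETS factor, was at -2.48 (-2.58 to -2.39), Cdx2, which sets intestinal identity, at -1.35 (-1.40 to -1.30) and Stat3 at 0.77.

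Of 15 cytokine receptor genes tested, 11 were above 0 and 5 at 1 or more (3 with total counts), with a median of 0.59. Il22ra1, which receives IL-22, went from 2010 to 4008 counts, at 1.38 (1.31 to 1.46). Il13ra1 was at 1.72 and Ifngr1 at 1.21, while Il1r1 at 2.87 rested on 10 counts in the control library.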
